A study of Mus musculus with 12 samples.

Results

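The 8 genes described here encode neurotrophic ligands and their receptors. The ligands are *Bdnf*, *Ntf3* and *Gdnf*, and the receptors are *Ntrk2*, *Ntrk3*, *Ngfr*, *Ret* and *Gfra1*. They were chosen by symbol, and all 8 were found among the 28686 gene symbols counted in each library. RNA-seq was performed on cochlear tissue of mice at P6 (postnatal day 6) on a mixed C57BL/6;129SV background. The 6 mutants were *Sox2*CreER/+*Jag1*fl/fl, and their 6 littermates that served as controls were *Sox2*+/+. All 12 mice had received tamoxifen on P0 and P1. In the mutants tamoxifen activates a Cre recombinase made from 1 *Sox2* allele in supporting cells, which deletes the Notch ligand gene *Jag1*. The controls carried no CreER and 1 or 2 floxed *Jag1* alleles, so that both the *Sox2* and the *Jag1* genotype set the groups apart. The study's methods give the *Jag1* flox line an FVB/n background, which differs from the strain in the labels.

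Neurotrophins are secreted growth factors that keep sensory neurons alive and guide their branches. BDNF binds the receptor tyrosine kinase TrkB (*Ntrk2*), NT-3 (*Ntf3*) binds TrkC (*Ntrk3*), and p75NTR (*Ngfr*) binds all neurotrophins and their precursors. GDNF binds the membrane-anchored co-receptor GFRα1 (*Gfra1*), and the complex activates the kinase RET. In the cochlea the sensory epithelium makes BDNF and NT-3, spiral ganglion neurons carry TrkB and TrkC, and p75NTR is known from Schwann cells and from pillar cells, a supporting cell type. The comparison between genotypes asked whether either side of this pairing, the ligands of the epithelium or the receptors of neurons and glia, differed after *Jag1* deletion.

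None of the 8 genes passed an adjusted p under 0.05 between the genotypes in edgeR's quasi-likelihood test. Of all 18459 genes tested, 35 passed, or 0.19% (0.108% with higher and 0.0813% with lower values in mutants). Without adjustment, p was under 0.05 for 2 of the 8, *Ngfr* with higher and *Ntf3* with lower values in mutants. Of all genes 10.6% reached this level, 6.52% with higher and 4.04% with lower values. DESeq2 called 1 of the 8, *Ngfr*, and 3.37% of all genes, and limma-voom called 0 of the 8 and 0.103% of all genes. For 0 of the 8 genes were the values of mutants and controls without overlap, which held for 0.997% of all genes. The median log2 fold change was 0.13 over the 8 genes and 0.0030 over all genes tested. Values are given as CPM, the counts of a gene scaled to the TMM-adjusted size of its library, and fold changes are mutant over control with their standard error (SE).

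To show the start of the genes on which the comparison turned, sequence upstream of annotated RefSeq starts (GRCm38.p6) was taken for *Ntf3*, *Ngfr* and *Bdnf*. The stretches stop where an exon of GENCODE M21 begins. Since *Jag1* signals through Notch, the windows were searched on both strands for TGGGAA, the core of the motif bound by RBPJ, the DNA-binding partner of Notch. Capitals mark it in either direction. Positions are counted from the 5′ end of each stretch.
*Ntf3*, distal start, chr6:126166911-126166994, minus strand: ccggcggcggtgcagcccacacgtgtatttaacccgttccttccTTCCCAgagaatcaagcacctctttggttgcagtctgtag
*Ntf3*, proximal start, chr6:126164961-126165210, minus strand: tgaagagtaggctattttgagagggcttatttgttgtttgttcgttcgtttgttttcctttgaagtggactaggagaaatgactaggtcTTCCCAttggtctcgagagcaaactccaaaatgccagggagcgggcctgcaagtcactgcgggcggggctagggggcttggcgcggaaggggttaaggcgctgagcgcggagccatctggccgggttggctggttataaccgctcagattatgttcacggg
*Ngfr*, chr11:95587736-95587948, minus strand: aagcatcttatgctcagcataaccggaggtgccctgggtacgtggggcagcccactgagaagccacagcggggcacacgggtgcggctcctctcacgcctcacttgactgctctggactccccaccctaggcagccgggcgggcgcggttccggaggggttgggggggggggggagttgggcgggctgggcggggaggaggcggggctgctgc
*Bdnf*, the fourth of 7 starts and shown because it alone of them held the motif, chr2:109692777-109693026, plus strand: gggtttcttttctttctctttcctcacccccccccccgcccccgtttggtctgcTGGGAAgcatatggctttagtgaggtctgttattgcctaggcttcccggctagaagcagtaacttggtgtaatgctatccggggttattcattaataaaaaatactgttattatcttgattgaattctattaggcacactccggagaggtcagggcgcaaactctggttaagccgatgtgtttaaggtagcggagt
Both *Ntf3* stretches held the motif in reverse, at positions 45 and 90, and the *Bdnf* stretch held it in the forward direction at position 55. The *Ngfr* stretch held none. Over windows of 250 bases, the letters occurred in 3 of 14 windows of the 6 genes that had an entry, and in 21.6% of all 32851 windows. A match of 6 letters is a description of the sequence and no evidence of binding.

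*Jag1* separated the genotypes in every library. It lay between 83.0 and 118 CPM in controls (median 104) and between 24.2 and 42.9 CPM in mutants (median 37.5), a log2 fold change of -1.48 (SE 0.13, edgeR adjusted p = 0.000258). Library totals lay between 28498549 and 36134983 counts. Hair cell markers summed to between 539 and 604 CPM in controls and between 561 and 647 CPM in mutants, and supporting cell markers to between 8150 and 10170 CPM and between 7255 and 9189 CPM. Markers of mesenchyme were present as well, at 9722 to 11868 CPM in controls and 9132 to 10811 CPM in mutants, so the dissected tissue was not epithelium alone. In bulk tissue, fewer cells of a type and less RNA per cell cannot be told apart. One library, mutant 4, stood apart from the rest. Among genes averaging 20 counts or more, 50 in it exceeded 4 times the highest of the other 11 libraries, against 0 or 1 gene in any other library. *Prph*, which encodes the neuronal filament protein peripherin, was at 155 CPM in mutant 4 and at 1.35 CPM or less in the other libraries. *Prph* is given here after its values were seen, and results that rest on mutant 4 are given with and without it.

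**Figure D1:**
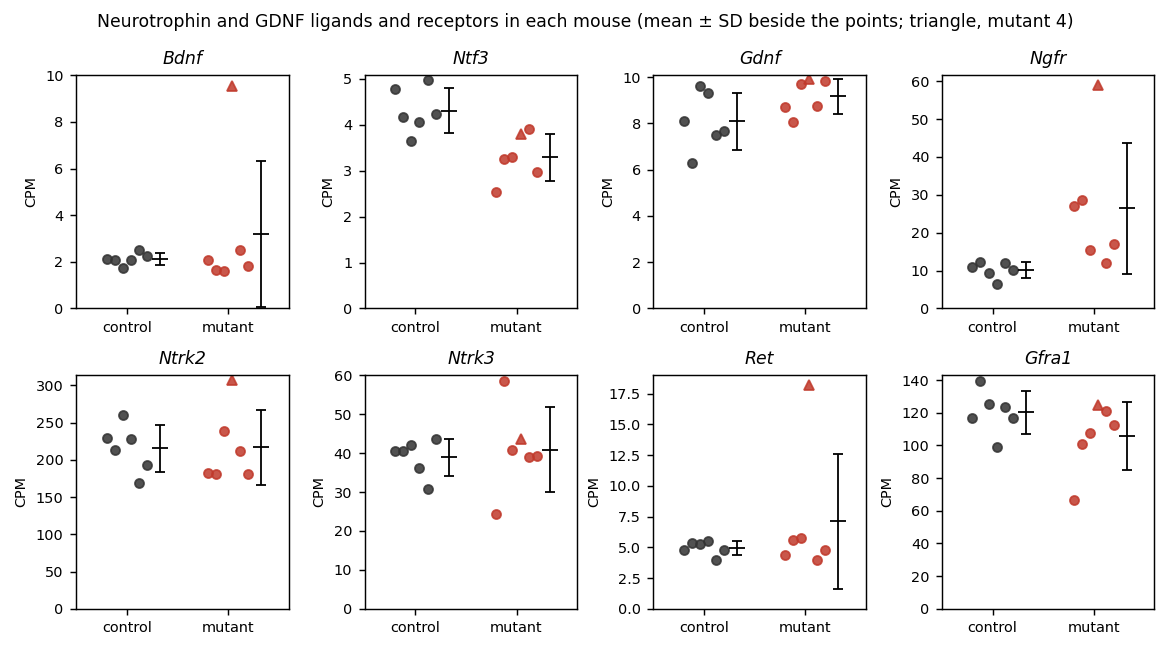
Level of each of the 8 genes in CPM (linear axes from 0) in the 6 control (grey) and 6 mutant (red) mice, with the mean and SD of each genotype beside the points and mutant 4 as a triangle. Mutant 4 lies far above the other mutants for *Bdnf*, *Ngfr* and *Ret*, while *Ntf3* is below the control median in 6 of 6 mutants.

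Of the ligands, *Ntf3* showed the clearest shift towards lower values. *Ntf3* (ENSMUSG00000049107.13, chr6:126101412-126166910, minus strand) encodes NT-3, which in the cochlea comes from inner hair cells and the supporting cells around them. Its level was lowest at 3.64 CPM, in the median 4.20 CPM and highest at 4.97 CPM in controls, and 2.55, 3.28 and 3.91 CPM in mutants. All 6 mutants lay below the control median, and the upper mutants overlapped the lower controls. On average the controls had 4.31 ± 0.488 CPM and the mutants 3.30 ± 0.511 CPM (SD, n = 6 each). The log2 fold change was -0.39 (SE 0.13, 95% interval -0.66 to -0.11, unadjusted p = 0.00879, edgeR adjusted p = 0.209), and an exact two-sided permutation test over the 924 divisions of the mice gave p = 0.00866. Without mutant 4 it was -0.43 (edgeR adjusted p = 0.194). Raw counts of *Ntf3* were between 83 and 172 per mouse, so counting error adds to the spread.

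*Bdnf* (ENSMUSG00000048482.14, chr2:109674700-109727007, plus strand), made by hair cells in the neonatal cochlea, had between 1.72 and 2.52 CPM in controls (median 2.11) and between 1.61 and 9.55 CPM in mutants (median 1.95). The highest value was that of mutant 4, with 327 counts. The other 5 mutants lay between 1.61 and 2.52 CPM, close to the range of the controls. The log2 fold change of 0.59 (SE 0.42, 95% interval -0.32 to 1.49, edgeR adjusted p = 0.732) became -0.14 (SE 0.16, edgeR adjusted p = 0.915) without mutant 4. The direction of *Bdnf* thus rested on 1 library. The gene has 11 transcripts in GENCODE M21 and, in a separate annotation, 7 RefSeq starts, and the deposited counts do not separate them. Its exons share 896 bases with *Gm45346* on the opposite strand, and whether counting used strand is not given in the sources used here.

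*Gdnf* (ENSMUSG00000022144.4, chr15:7810846-7837575, plus strand), the ligand of the GFRα1 and RET complex, had between 6.28 and 9.63 CPM in controls (median 7.91) and between 8.07 and 9.93 CPM in mutants (median 9.25). All 6 mutants lay above the control median, and 3 of them lay slightly above the highest control. The fold change on the log2 scale was 0.18 (SE 0.11, 95% interval -0.05 to 0.41, edgeR adjusted p = 0.635, exact permutation p = 0.0931). Mutant 4, at 9.93 CPM, was close to the highest of the other libraries at 9.82 CPM, and the log2 fold change without it was 0.16.

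*Ngfr* had the largest fold change of the 8 genes. *Ngfr* (ENSMUSG00000000120.6, chr11:95568818-95587735, minus strand), the receptor p75NTR, is used as a mark of immature and non-myelinating Schwann cells. In controls it was lowest at 6.42 CPM, in the median 10.5 CPM and highest at 12.3 CPM, and in mutants at 12, 21.9 and 59.1 CPM. Only mutant 5 fell within the control range. Controls averaged 10.2 ± 2.18 CPM and mutants 26.5 ± 17.3 CPM (SD, n = 6 each), with mutant 4 highest and the other mutants at 28.6 CPM or less. The log2 fold change was 1.38 (SE 0.36, 95% interval 0.59 to 2.16), or 2.60-fold, with an unadjusted p of 0.00246 and an edgeR adjusted p of 0.121, and the exact permutation test gave p = 0.00649. The call depended on the model and on single mice. DESeq2 gave an adjusted p of 0.0112. Without mutant 5 the edgeR adjusted p was 0.0383, and without mutant 4 the log2 fold change was 0.97 (SE 0.23, edgeR adjusted p = 0.0950).

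Most markers of Schwann cells and neurons, like *Ngfr*, had higher values in mutants. All 14 Schwann cell markers had an unadjusted p under 0.05 and higher values in mutants, and so did 13 of 15 neuron markers. Of all genes, 6.52% did. At an edgeR adjusted p under 0.05 there were 0 of each, with DESeq2 12 and 11, and with limma-voom 0 of each. The shares of all genes were 0.19%, 3.37% and 0.103%. The summed Schwann cell markers lay between 452 and 1531 CPM in controls and between 1235 and 6595 CPM in mutants, and the summed neuron markers between 547 and 961 CPM and between 823 and 1848 CPM. Over the neuron markers the median log2 fold change was 2.54, over the Schwann cell markers 1.75, and over all genes tested 0.0030. The neuron sum, with medians of 764 CPM in controls and 1069 CPM in mutants, did not follow every marker. In control 4 it was 949 CPM, while *Nefl*, a neuron marker named here after its values were seen, was at 1.96 CPM. Control 4 was the lowest of all mice for *Nefl* and for *Ngfr* (6.42 CPM). No marker of either list was at 0 in every library. The study counted spiral ganglion neurons per area in stained tissue at P6 and reported no significant difference between mutants and controls. Those were counts of cells and not RNA levels, and they were not made on these libraries. Mutants 1 and 2 had the highest Schwann cell sums, 6595 and 5025 CPM, and *Ngfr* at 27.0 and 28.6 CPM. Mutant 5, with *Ngfr* at 12 CPM, had a Schwann cell sum of 1357 CPM. Mutants 3 and 6 had sums of 2532 and 2411 CPM, with *Ngfr* in the reverse order at 15.4 and 16.9 CPM. Control 1, with a sum of 1531 CPM, above that of mutant 5, had *Ngfr* at 11.0 CPM. Mutant 4, highest in *Ngfr*, had the lowest Schwann cell sum of the mutants, 1235 CPM. Its neuron sum was the highest, 1848 CPM, of which *Prph* gave 155 CPM. For a further fit, a marker score was the mean log2 CPM of each list, not the sum given above. With both marker scores as covariates the log2 fold change of *Ngfr* was 0.21 (SE 0.21, edgeR adjusted p = 1), in a fit that called 1 gene in all. Most markers of both lists were higher in mutants, so the scores go with genotype and the fit cannot tell them apart. In the same fit the log2 fold changes of the other 7 genes lay between -0.30 (*Ntf3*) and 0.40 (*Gdnf*), each with an edgeR adjusted p of 1. Macrophage markers summed to between 343 and 430 CPM in controls and between 274 and 371 CPM in mutants, and their part in the result was not tested.

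**Figure D2:**
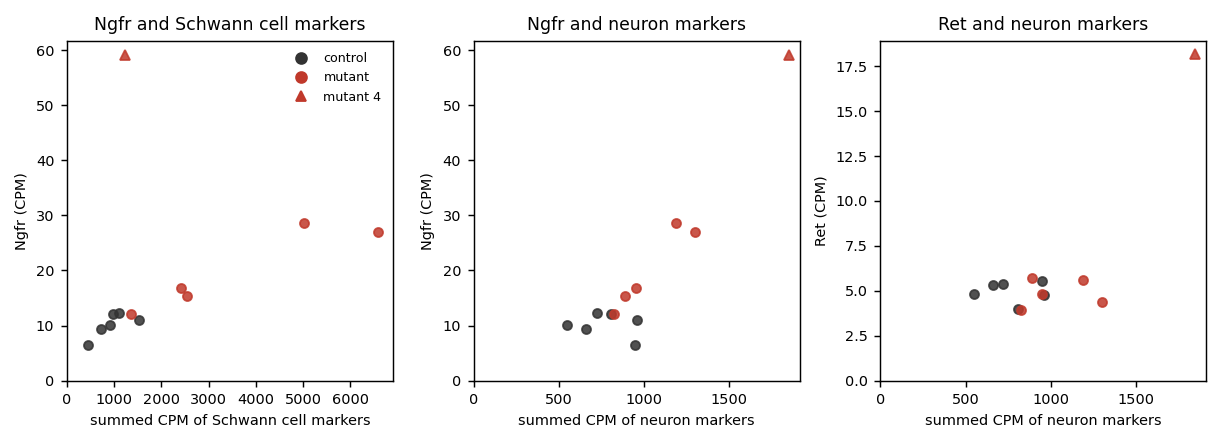
*Ngfr* against the summed CPM of 14 Schwann cell markers and of 15 neuron markers, and *Ret* against the neuron markers, 1 point per mouse (control grey, mutant red, mutant 4 a triangle, linear axes from 0). Mutants 1 and 2 have the highest Schwann cell sums and *Ngfr* at 27.0 and 28.6 CPM, mutant 4 has *Ngfr* at 59.1 CPM with a Schwann cell sum of 1235 CPM, and *Ret* stays between 3.94 and 5.74 CPM in the 11 mice other than mutant 4.

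*Ntrk2* and *Ntrk3*, the kinase receptors of BDNF and NT-3, had log2 fold changes close to 0. Of 15 neuron markers, 13 had higher values at an unadjusted p under 0.05, against 6.52% of all genes. Bulk counts do not show which cells gave the reads of either receptor gene. *Ntrk2* (ENSMUSG00000055254.15, chr13:58806569-59133970, plus strand) encodes TrkB, with and without the kinase domain, forms that the deposited counts do not separate. It lay between 169 and 260 CPM in controls (median 221) and between 180 and 307 CPM in mutants (median 197), and the highest value was again that of mutant 4. The fold change on the log2 scale was 0.0084 (SE 0.14, 95% interval -0.29 to 0.30, edgeR adjusted p = 0.994) and -0.12 (edgeR adjusted p = 0.882) without mutant 4. *Ntrk3* (ENSMUSG00000059146.12, chr7:78175959-78738012, minus strand) encodes TrkC. It lay between 30.8 and 43.8 CPM in controls (median 40.6) and between 24.4 and 58.5 CPM in mutants (median 40.0), with mutant 1 lowest and mutant 2 highest. Its log2 fold change was 0.07 (SE 0.16, 95% interval -0.27 to 0.41, edgeR adjusted p = 0.946). Mutants 1 and 2, which were alike in *Ngfr* and in Schwann cell markers, stood at opposite ends for *Ntrk3*.

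*Ret* (ENSMUSG00000030110.13, chr6:118151745-118197718, minus strand), the kinase of the GDNF receptor, had between 3.99 and 5.52 CPM in controls (median 5.06) and between 3.94 and 18.2 CPM in mutants (median 5.21). Mutant 4, with 623 counts, was 3.17 times the highest of the other 11 libraries, and the other 5 mutants, at 3.94 to 5.74 CPM, lay close to the control range. The log2 fold change was 0.52 (SE 0.34, 95% interval -0.21 to 1.25, edgeR adjusted p = 0.698) with mutant 4 and -0.02 (SE 0.13, edgeR adjusted p = 0.991) without it. *Gfra1* (ENSMUSG00000025089.15, chr19:58235604-58455909, minus strand), its co-receptor, showed no such excess. It lay between 99.2 and 140 CPM in controls (median 120) and between 66.8 and 125 CPM in mutants (median 110), with mutant 1 lowest, and the log2 fold change was -0.19 (SE 0.13, 95% interval -0.46 to 0.09, edgeR adjusted p = 0.714), and -0.085 without mutant 1. Exons of *Gfra1* share 416 bases with *Gm16277* on the opposite strand.

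Mutant 4 thus exceeded the highest other library by more than 2 times for 3 of the 8 genes, *Bdnf* (3.8 times), *Ret* (3.17 times) and *Ngfr* (2.07 times). *Ntrk2* was at 1.18 times and *Gdnf* at 1.01 times the highest other library, while *Ntf3*, *Ntrk3* and *Gfra1* in mutant 4 lay below it. Of the other pathway genes, *Vgf*, a neuropeptide precursor gene induced by neurotrophins and named here after its values were seen, had 482 counts in mutant 4 and between 0 and 11 elsewhere. *P2rx3*, an ATP-gated channel gene of sensory neurons, was at 71.6 CPM in mutant 4 and at 13.5 CPM or less elsewhere. Outside the pathway, *Prrxl1* and *Tlx3*, also named after their values were seen, had 301 and 106 counts in mutant 4 and between 0 and 2 elsewhere. Their part in the values of *Bdnf*, *Ret* and *Ngfr* was not tested beyond leaving the library out.

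**Figure D3:**
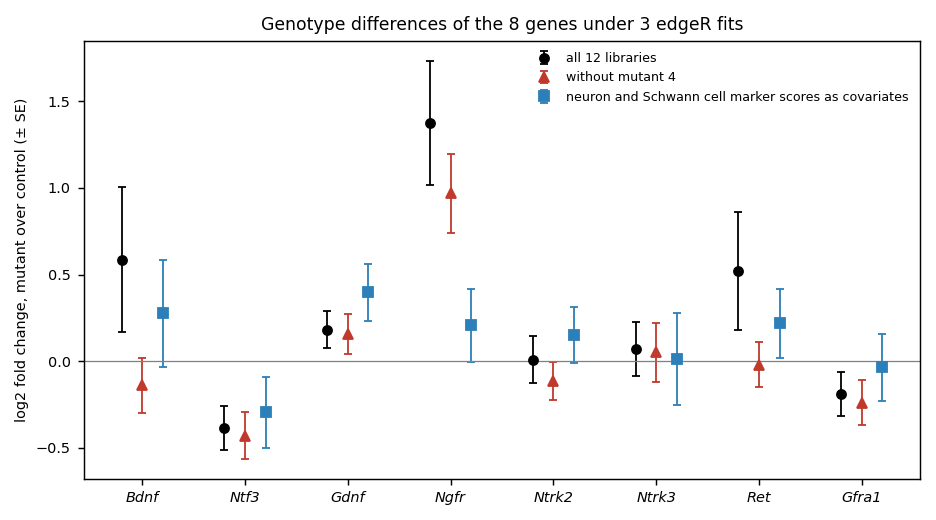
Log2 fold change, mutant over control, of the 8 genes with its standard error in 3 edgeR fits: all 12 libraries (black circles), without mutant 4 (red triangles), and with the neuron and Schwann cell marker scores as covariates (blue squares). *Bdnf* and *Ret* move from 0.59 and 0.52 to -0.14 and -0.02 without mutant 4. *Ngfr* moves from 1.38 to 0.97 without mutant 4 and, with the covariates, to 0.21. The covariates themselves go with genotype, since most of their markers are higher in mutants.

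Within each mouse, receptor and ligand were also set side by side as the log2 ratio of their CPM, given as a description with no test. The ratio of *Ntrk3* to *Ntf3* was 3.18 ± 0.309 in controls and 3.60 ± 0.329 in mutants (SD, n = 6 each), a difference of 0.43 with mutant 4 and 0.44 without it. The ratio of *Ngfr* to *Ntf3* showed the widest gap, 1.22 ± 0.298 in controls and 2.81 ± 0.855 in mutants, with mutants from 1.62 upwards and controls up to 1.56. It pairs the gene of the 8 with the largest difference upwards with the one that differed most downwards, both of which overlapped between the genotypes when taken alone, and it is the most extreme of the 6 ratios computed. The ratio of *Ngfr* to *Bdnf* was 2.23 ± 0.331 in controls and 3.19 ± 0.675 in mutants. That difference was 0.96 with mutant 4 and 1.07 without it, and the genotypes overlapped, with controls up to 2.56 and mutants from 2.25 upwards. The ratio of *Ntrk2* to *Bdnf* was 6.65 ± 0.391 and 6.41 ± 0.746, and without mutant 4 the difference of -0.24 became 0.04. For the GDNF pair, *Gfra1* to *Gdnf* was 3.90 ± 0.355 in controls and 3.50 ± 0.298 in mutants, while *Ret* to *Gdnf* differed by 0.10 with mutant 4 and by -0.19 without it. The 6 pairs thus did not differ in 1 direction. *Ngfr* was higher against *Ntf3* and *Bdnf*, *Ntrk3* was higher against *Ntf3*, and *Gfra1* was lower against *Gdnf*.

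Levels of different genes were compared per length, as CPM per kilobase of exon (the union of GENCODE M21 exons). In controls *Gfra1* was highest, with a median of 22.0 and a range of 18.1 to 25.5, above *Ntrk2* with 11.4 (8.75 to 13.5). *Ngfr* with 3.06, *Ntf3* with 2.45 and *Gdnf* with 2.15 followed, and their ranges overlapped, so these 3 neighbours did not differ beyond their spread. *Ntrk3* with 1.35 (1.02 to 1.45), *Ret* with 0.748 (0.590 to 0.815) and *Bdnf* with 0.340 (0.277 to 0.405) were each below the gene before it in every control. In mutants *Ngfr* took a median of 6.37 (3.48 to 17.2), and *Gdnf* with 2.52 stood before *Ntf3* with 1.91, while the other places were as in controls. With the longest transcript in place of all exons, *Ntrk2* and *Gfra1* came close, at means of 24.7 and 25.9 in controls, and in mutants their order turned. The annotation used for the deposited counts is not given in the sources used here, which bears most on *Ntrk2* and *Ntrk3*, whose exons span 19292 and 30170 bases in all.

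**Figure D4:**
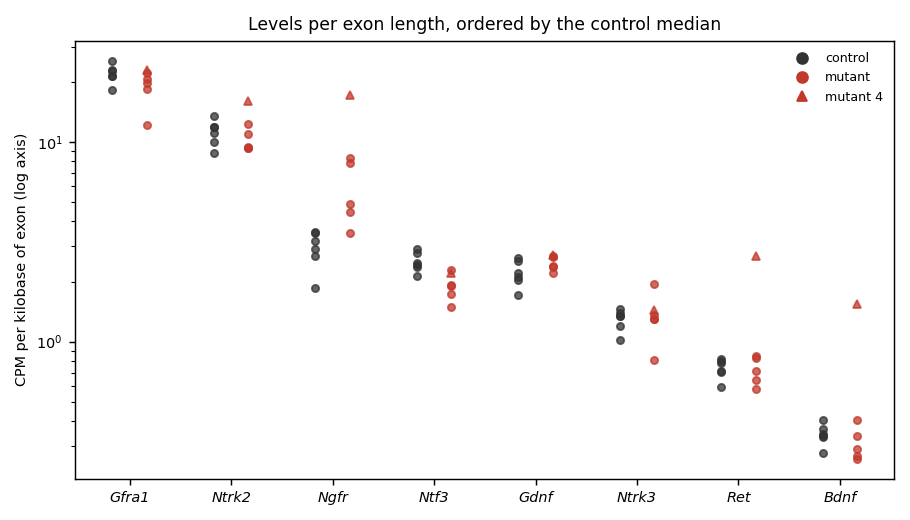
CPM per kilobase of exon (log axis) of the 8 genes in each control (grey) and mutant (red) mouse, with mutant 4 as a triangle, ordered by the control median. *Gfra1* and *Ntrk2* are highest, *Ngfr*, *Ntf3* and *Gdnf* overlap in controls, and *Bdnf* is lowest with a control median of 0.340.

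The genes that varied most like each of the 8 from mouse to mouse were found by the Pearson correlation of log2 CPM after the genotype mean was subtracted, over 12 libraries and as a description only. For *Ngfr* they were *Cacna1b* (r = 0.971), *Pfkp* (0.964) and *P2rx3* (0.961), and without mutant 4, over 11 libraries, *S100a6* (r = 0.975), *Sv2a* (0.971) and *Sema3b* (0.968). For *Bdnf* and *Ret* the leading genes, *Lix1* (0.978) and *Amigo1* (0.969), gave way without mutant 4 to other genes, so that these likenesses rested on that library. *Ntrk2* stayed closest to *Nacc2* (0.974 with and 0.951 without mutant 4), *Ntrk3* to *Mbd4* (0.989 in both) and *Gfra1* to *Atp13a5* (0.954 and 0.963). *Ntf3* was closest to *Fbxl4* (0.884), and without mutant 4 to *Opn3* (0.940). For *Gdnf* the same 3 genes led with and without mutant 4, among them *Irgm1* (0.890 over 12 libraries). The libraries share depth and dissection, which can produce such correlations. Each gene was also picked as the highest among all those averaging 50 counts or more. Such a pick over few libraries gives a high r by itself. The values with and without mutant 4 share 11 libraries and are not independent.

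The other genes of the pathway were taken from a list of 101 symbols, of which 95 passed the filter of a mean count of at least 5. Of these, 0 had an edgeR adjusted p under 0.05, against 0.19% of all genes. At an unadjusted p under 0.05, 9 had higher and 5 had lower values in mutants, against 6.52% and 4.04% of all genes. The median log2 fold change of the 95 genes was -0.0013. DESeq2 called 6, of which 5 were higher, and 3.37% of all genes, and limma-voom called 0, and 0.103% of all genes. Of the other neurotrophins, *Ntf5*, which encodes the TrkB ligand NT-4/5, averaged 2.87 ± 0.382 CPM in the control mice and 2.14 ± 0.429 CPM in the mutant mice (SD, n = 6 each), with a log2 fold change of -0.42 (SE 0.15, edgeR adjusted p = 0.278), similar in size to that of *Ntf3*. The other GDNF family ligands were low, with *Nrtn* at 5.41, *Artn* at 2.64 and *Pspn* at 0.548 CPM in controls and log2 fold changes between -0.10 and 0.08. Of their co-receptors, *Gfra2*, the receptor of neurturin, averaged 7.42 ± 1.56 CPM in the control mice and 9.47 ± 1.91 CPM in the mutant mice (SD, n = 6 each, log2 fold change 0.35, SE 0.16, edgeR adjusted p = 0.441), and *Gfra3* and *Gfra4* averaged 0.296 and 6.05 CPM in control mice, against 0.359 and 5.86 CPM in mutant mice.

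The 6 genes with the smallest p-values among processing enzymes, adaptors and responsive genes were the same 6 that DESeq2 called. *Mapk10*, a stress kinase of neurons, averaged 4.43 ± 1.71 CPM in the control mice and 12.05 ± 5.199 CPM in the mutant mice (SD, n = 6 each), with a log2 fold change of 1.44 (SE 0.33, edgeR adjusted p = 0.0846). *Serpini1*, a neuronal inhibitor of the protease tPA, and *Cadps*, which primes dense core vesicles for release, had log2 fold changes of 2.09 and 2.60, and *Magel2*, with less than 1 CPM in every mouse, had 2.09. *Egr2*, a regulator of myelination that is also in the Schwann cell marker list, had 1.79, and *Furin*, a protease that cleaves proneurotrophins, had -0.20 (SE 0.06, edgeR adjusted p = 0.165). Without mutant 4 the log2 fold changes of the 5 genes with higher values were between 1.37 and 2.07. With the neuron and Schwann cell marker scores as covariates they were 0.036 for *Mapk10*, 0.12 for *Magel2*, 0.10 for *Serpini1*, 0.19 for *Cadps* and -0.22 for *Egr2*, each with an edgeR adjusted p of 1, where *Egr2* is itself part of the Schwann cell score. Here too the scores go with genotype, and the fit cannot tell them apart. Without mutants 1 and 2 the log2 fold change of *Egr2* was 0.86.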

How the data were processed

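Total RNA of 12 P6 cochlear samples was sequenced as single-end reads. The table the authors deposited holds raw counts for each gene symbol in every library, neither normalized nor pooled. The submitters' processing notes name Trimmomatic 0.32, STAR 2.4.2a, HTSeq 0.9.1, DESeq2 1.10.1 and GRCm38.p4, without settings, and the annotation and strand setting are not given in the sources used here. A second deposited table holds the authors' own comparison (mean, log2 fold change, its error, statistic and p-values) and was not used.

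Genotypes and replicate numbers were taken from the labels. Each library was taken as 1 mouse, since the study's methods give 6 mice per genotype. Genes averaging 5 counts or more were fitted in edgeR 4.0.16 (R 4.3.3, TMM, robust quasi-likelihood F-test, no covariates) on all 12 libraries, with Benjamini-Hochberg adjustment over all 18459 genes tested. The study used DESeq2, which was kept as an alternative (1.42.0, without a prior), beside limma 3.58.1. For single genes, log2(CPM + 0.1) was in addition permuted over all divisions of the mice (exact, two-sided), for which the smallest possible p is 0.00216. Log2 CPM values for marker scores and likeness used a prior count of 2. The fits were checked on simulated data. Total counts lay between 28498549 and 36134983 per library. Coordinates and exons are from GENCODE M21 (GRCm38), which lists 92.4% of the symbols, and upstream sequences are from RefSeq (GRCm38.p6).

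The members and all gene lists were chosen with earlier results of these data known. The genes named are the 8 members, other ligands and receptors of both families, the 6 genes with the smallest p-values in the rest of the pathway list, and the 3 genes most like each member, of which some are given. Any gene named outside this rule is marked as such, and a few genes the rule covers are not reported here.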

Additional observations from a re-analysis of the deposited data

Results flagged for a closer look

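In 5 of 44 groups of 6 values examined, 1 mouse stood apart from the others of its genotype by Dixon's test, where chance alone sets apart about 5% of groups. Mutant 4 was set apart for *Bdnf* at 9.55 CPM (next highest mutant 2.52 CPM), for *Ret* at 18.2 CPM (next 5.74 CPM) and for *Ngfr* at 59.1 CPM (next 28.6 CPM). Among the other pathway genes, *Gfra4* was at 8.19 CPM in mutant 1 (next 5.73 CPM) and *Gfra3* at 0.378 CPM in control 6 (next 0.289 CPM). The value of *Gfra3* rested on fewer than 20 counts.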

How the results depend on the processing

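The number of genes called over all genes tested was 35, and 619 with DESeq2, 19 with limma-voom, 57 without a filter, 131 with the replicate number as a block, 1 with the marker scores as covariates, 253 at an adjusted p under 0.1 and 1949 at an unadjusted p under 0.05. Of these, 20 of the 35 were higher in mutants, 473 of the 619, 6 of the 19, 36 of the 57, 115 of the 131, 0 of the 1, 187 of the 253 and 1204 of the 1949. With 1 library left out the number lay between 14 and 356. It was 356 without mutant 5 (316 higher), 66 without mutant 4, 54 without mutant 1, 22 without control 3, 17 without control 4 (4 higher) or mutant 2 (7 higher), 15 without control 5 or mutant 6, and 14 without control 2 or 6. Of the 8 members, 0 were called, and 1 (*Ngfr*) with DESeq2, between 0 and 1 with a library left out (1 without mutant 5) and 2 at an unadjusted p under 0.05. Of the other pathway genes, 0 were called, and 6 with DESeq2, 3 with the replicate block, between 0 and 4 with a library left out (4 without mutant 5), 1 at an adjusted p under 0.1 and 14 at an unadjusted p under 0.05. DESeq2 gave no p for *Bdnf*.

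With a library left out, the log2 fold change of *Ngfr* stayed between 0.97 and 1.53 (edgeR adjusted p between 0.0383 and 0.265) and that of *Ntf3* between -0.44 and -0.32 (edgeR adjusted p between 0.137 and 0.380). Those of *Bdnf* (-0.14 to 0.72), *Ret* (-0.020 to 0.64), *Ntrk2* (-0.12 to 0.069), *Ntrk3* (-0.060 to 0.18), *Nrtn* (-0.27 to 0.072), *Pspn* (-0.10 to 0.10) and *Gfra4* (-0.17 to 0.0078) changed sign. Signs also turned with limma-voom for *Ntrk2* (-0.0077) and *Pspn* (-0.025), with no filter for *Pspn* (-0.0030), with the replicate block for *Ntrk2* (-0.0073) and *Pspn* (-0.013), and with the marker scores as covariates for *Egr2* (-0.22, itself part of the Schwann cell score), *Gfra2* (-0.11) and *Gfra3* (-0.32). The cause was not tested. Mutants 1 and 2 left out together, an alternative chosen after seeing the data, gave *Ngfr* 1.34 (edgeR adjusted p = 0.371) and *Ntf3* -0.30. Whether replicate numbers pair the mice was not settled. Same-numbered mice correlated between -0.19 and 0.27 in their deviations from the genotype means. Of the 12 mice, 4 correlated best with the same-numbered mouse of the other genotype. With the replicate block *Ngfr* was at 1.17 (edgeR adjusted p = 0.281).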
